A study of Columba livia with 19 samples.

Results

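A set of 170 genes stood at 2 levels in the growing feathers of domestic rock pigeons (Columba livia), with every gene lower in the same 7 birds than in the high birds of the same batch, of which there were 12 in all. The 170 genes were found among 15392 genes counted in 19 birds. They were chosen by CPM, the count of a gene scaled to the library's total count. A gene was taken when its mean CPM over the birds was at least 2 and no more than the largest whole number of 3 digits (such genes are called expressed below), when each of the 7 low birds lay below each of the high birds of its batch, and when the log2 ratio of mean CPM, low over high, was from -1.4 to -0.5 in each batch. The low birds were recessive red birds 6 and 7 and wild-type birds 00 and 23 of batch 2, and recessive red bird 3 and wild-type birds 3 and 4 of batch 1. This split of the birds comes from the expression values and from no label. All values of low against high birds below therefore describe the choice and carry no test.

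Polyadenylated RNA came from the collar of regrowing secondary flight feathers, the ring of growing epidermis where melanocytes hand pigment to the cells of the forming feather. The dermal pulp had been removed, per the labels. Batch 2, collected in 2020, held 3 recessive red e2 homozygotes (birds 5, 7 and 14), 3 recessive red e1 homozygotes (birds 6, 11 and 12), 5 wild-type birds (00, 20, 21, 23 and 24) and bird 22, a carrier of e1 that was counted as wild type. Batch 1, sequenced in 2017, held 3 recessive red e1 homozygotes and 4 wild-type birds. The e1 and e2 alleles are deletions upstream of SOX10, which encodes a transcription factor of the melanocyte lineage, and homozygotes make red pheomelanin in place of dark eumelanin. The labels used here give no sex and no age of any bird. A low level in a bird can reflect less RNA per cell or fewer of the cells that hold the RNA, and the collar tissue counted in bulk cannot tell these apart.

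Genes that stand at 2 levels among individuals of a bird species are of interest because of the sex chromosomes. In birds the male carries a pair of Z chromosomes and the female a Z and a W, and dosage compensation of the Z is incomplete and varies from gene to gene. In pigeons the Z also carries loci of plumage colour: TYRP1, which encodes a melanosomal enzyme and underlies the ash-red and brown phenotypes, and SLC45A2, which encodes a melanosomal transporter and underlies dilute. Whether the 170 genes lie on the Z was not tested here: the files do not pair the gene identifiers with names or chromosomes, and 0 of the 15392 identifiers matched a table of 22830 genes of the pigeon assembly bColLiv1.pat.W.v2. TYRP1, SLC45A2 and markers of melanocytes or other collar cells were for that reason not analysed here, the tissue could not be checked against its markers, and no gene is given a role or a sequence.

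Together the 170 genes took 0.706 ± 0.0236% of the counts in the low birds (SD, n = 4) and 1.33 ± 0.0340% in the high birds (SD, n = 8) of batch 2. In batch 1 they took 0.743 ± 0.0180% in the low birds (SD, n = 3) and 1.36 ± 0.0348% in the high birds (SD, n = 4). The low birds spanned 0.679% (recessive red bird 7) to 0.762% (recessive red bird 3), and the high birds 1.30% (wild-type bird 21) to 1.41% (recessive red bird 5). The choice requires these shares to part within each batch. Low birds of either batch also lay below the high birds of the other. Both phenotypes held both levels. The 3 low recessive red birds averaged 0.726 ± 0.0424% and the 4 low wild-type birds 0.719 ± 0.0173%, while the 6 high recessive red birds averaged 1.35 ± 0.0413% and the 6 high wild-type birds 1.33 ± 0.0213% (SD). The carrier of e1 was a high bird, at 1.34%. Total counts ranged from 13559606 to 23168538 per bird, and the highest total belonged to a low bird, recessive red bird 3.

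**Figure D1:**
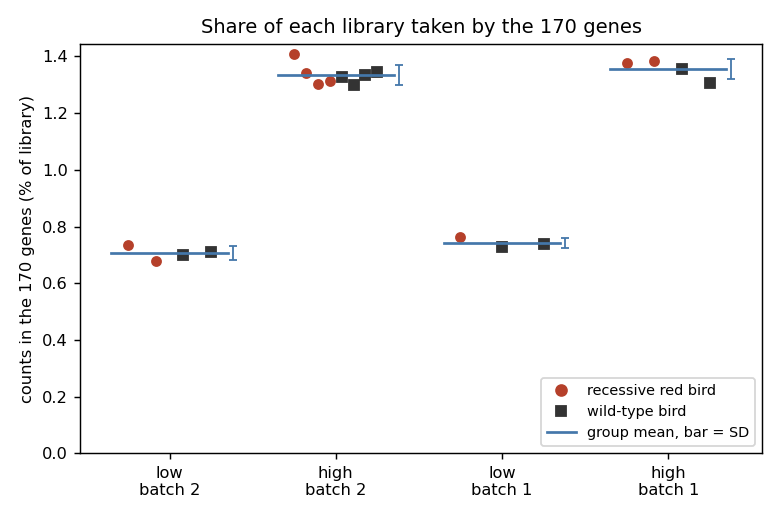
Percentage of each bird's counts that fell in the 170 genes, by level and batch. Circles are recessive red and squares wild-type birds, lines are group means and bars are SDs; the low birds lie between 0.679% and 0.762% and the high birds between 1.30% and 1.41%.

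The log2 ratio of low over high birds had a median of -0.98 in batch 2 and -0.91 in batch 1. In 118 of the 170 genes it was more negative in batch 2. Over both batches, 102 of the 170 genes (60%) had a mean log2 ratio between -1.1 and -0.9, and the whole set ran from -1.17 to -0.56. The limits of the choice, -1.4 to -0.5 in each batch, bound these ratios and the percentages per bird that follow. Per bird, the median gene stood at 48.0 to 54.6% of the mean of the high birds of its batch in the low birds and at 93.3 to 106% in the high birds. By phenotype, its median was -0.98 in recessive red birds and -0.98 in wild-type birds of batch 2, and -0.91 and -0.91 in the same phenotypes of batch 1. The choice puts all 170 genes below 0 in each of these. Within the alleles of batch 2 it was -1.13 in e2 and -0.85 in e1 homozygotes, each with 1 low bird against 2 high birds, and no replicate of the low bird. Across the 170 genes, which share their libraries and were held within the same limits, the ratios of the batches correlated with r = 0.452 (Pearson) and rho = 0.336 (Spearman), given as a description.

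**Figure D2:**
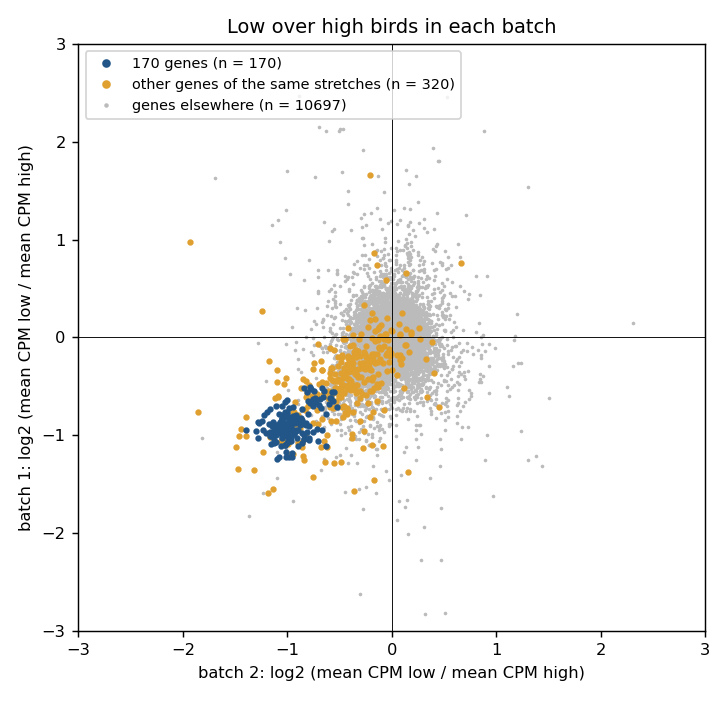
Log2 ratio of mean CPM, low over high birds, in batch 2 (horizontal) and batch 1 (vertical) for the 11187 expressed genes; 5 genes lie outside the plot. The 170 genes (blue) have medians of -0.98 and -0.91 on the axes, and the other genes of the same identifier stretches (orange) have medians of -0.40 and -0.42.

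The gene with the highest mean CPM of the set was A306_00011935, at 645 CPM over all birds. Its low birds of batch 2 stood at 379 CPM (recessive red bird 6), 525.6 CPM (recessive red bird 7), 506 CPM (wild-type bird 00) and 493.1 CPM (wild-type bird 23), against 570 to 908 CPM with a median of 824 CPM in the 8 high birds. In batch 1 the low birds stood at 411 CPM (recessive red bird 3), 452 CPM (wild-type bird 3) and 437 CPM (wild-type bird 4), against 636 and 727 CPM in high recessive red birds 1 and 4 and 692 and 711 CPM in high wild-type birds 1 and 2. Its log2 ratio was -0.72 in batch 2 and -0.67 in batch 1, on the mild side of the set, and recessive red bird 5 was the lowest of its high birds. CPM is not scaled to transcript length, so these levels are not compared between genes.

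A306_00009564 had a ratio near -1 in each batch, at levels that differed between the batches. Its low birds stood at 254, 180, 169 and 245 CPM in batch 2 (recessive red birds 6 and 7, wild-type birds 00 and 23), and its high birds at 280 to 641 CPM with a median of 381 CPM. In batch 1 its low birds stood at 397, 323 and 342 CPM (recessive red bird 3, wild-type birds 3 and 4) and its high birds at 662, 635, 724 and 796 CPM (recessive red birds 1 and 4, wild-type birds 1 and 2). The log2 ratios were -1.02 and -0.99. Low birds of batch 1 thus overlapped the high birds of batch 2, and only within a batch did the levels part. In 41 of the 170 genes low birds of either batch overlapped high birds of the other, while in the other 129 every low bird lay below every high bird of either batch.

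The most negative ratios, averaged over the batches, belonged to A306_00014209 and A306_00011388. A306_00014209 stood at 8.51, 8.63, 9.83 and 9.65 CPM in the low birds of batch 2 (recessive red birds 6 and 7, wild-type birds 00 and 23) and at 22.5 to 27.8 CPM in the high birds. In batch 1 it stood at 13.9, 13.8 and 13.4 CPM in the low birds (recessive red bird 3, wild-type birds 3 and 4) and at 23.8 to 29.9 CPM in the high birds. Its high birds overlapped between the batches and its low birds were lower in batch 2, and its log2 ratio was -1.399 in batch 2 and -0.94 in batch 1. A306_00011388 had ratios of -1.099 and -1.24, with 28.1 to 46.9 CPM in low and 64.7 to 97.9 CPM in high birds of batch 2, and 29.4 to 35.2 CPM in low and 58.0 to 100.4 CPM in high birds of batch 1.

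The mildest averaged ratios belonged to A306_00010727 and A306_00009899. A306_00010727 stood at 72.3 ± 9.19 CPM in low (SD, n = 4) and 106 ± 10.3 CPM in high birds (SD, n = 8) of batch 2, and at 51.8 ± 1.84 CPM in low (SD, n = 3) and 76.0 ± 10.7 CPM in high birds (SD, n = 4) of batch 1, with log2 ratios of -0.56 and -0.55. A306_00009899 stood at 112 ± 6.29 and 166 ± 17.8 CPM in low and high birds of batch 2 and at 91.5 ± 4.05 and 135 ± 15.5 CPM in batch 1, with ratios of -0.57 and -0.56. With the set divided at the quartiles of mean CPM, the median ratio was -0.98, -0.92, -0.96 and -0.94, low to high CPM.

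**Figure D3:**
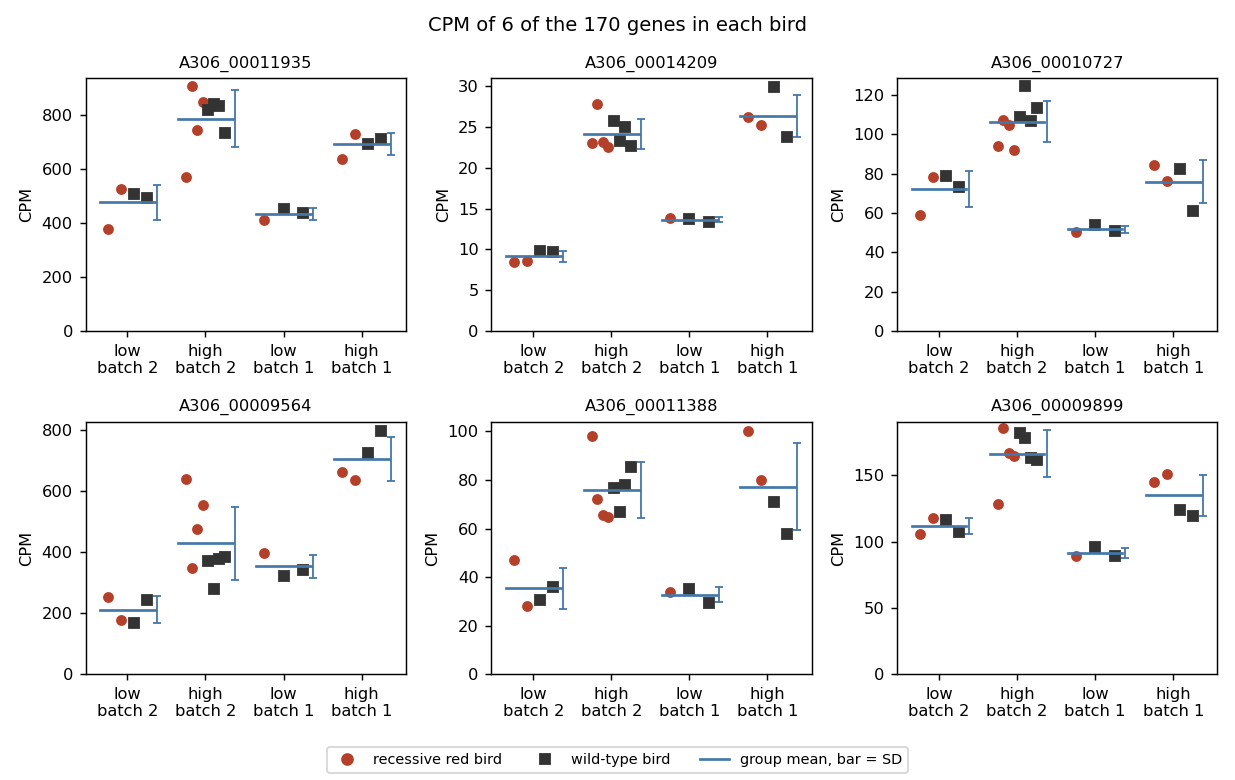
CPM per bird of the 2 genes with the highest mean CPM (left), the 2 with the most negative (middle) and the 2 with the least negative log2 ratio (right). Circles are recessive red and squares wild-type birds, lines are group means and bars SDs; within each batch no low bird reaches a high bird, and A306_00009564 also differs between batches.

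The median coefficient of variation over the 170 genes was 15.2% in low and 12.9% in high birds of batch 2, and 9.69% in low and 10.5% in high birds of batch 1. The gap itself, the lowest high bird over the highest low bird, had a median of 1.29-fold in batch 2 and 1.47-fold in batch 1 and came down to 1.00-fold and 1.03-fold in the closest genes. Pearson correlations of the members to their own median profile ran from 0.697 to 0.986 over the 19 birds. The choice favours high values here, as it sets the same low and high birds for every member. The genes most like that profile were A306_00012890 (r = 0.986) and A306_00010702 (r = 0.980). A306_00012890 stood at 35.1 to 39.3 CPM in low and 77.0 to 90.3 CPM in high birds of batch 2, and at 36.9 to 46.0 CPM in low and 73.6 to 89.1 CPM in high birds of batch 1.

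The choice went by steps, which are given as counts. Of 11187 expressed genes, the low birds lay below all high birds in 224 genes in batch 2 (2%) and in 564 in batch 1 (5.04%), and in 181 (1.62%) in both. The ratio limits then left 170 (1.52%). In the other direction the low birds lay above all high birds in 7 genes in batch 2 (0.0626%), in 259 in batch 1 (2.32%) and in 1 (0.00894%) in both. That gene, A306_00006460, named after its values were seen, averaged 98.3 CPM in low and 77.1 CPM in high birds of batch 2 and 94.7 and 83.4 CPM in batch 1, a log2 ratio of 0.35 and 0.18. No gene met the limits of the set with the sign turned. Batch 2 held 4 low and 8 high birds and batch 1 held 3 low and 4 high birds.

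A306_00007968 missed the set with a log2 ratio of -1.45 in batch 2, beside A306_00014209 at -1.399 inside. A306_00009836 missed it with -0.49 in batch 2, beside A306_00010714 at -0.52. In batch 1 A306_00007935 missed it with -1.59 and A306_00009850 with -0.48, beside A306_00011388 at -1.24 and A306_00009572 at -0.51 inside. A306_00009902 missed the CPM minimum at 1.56 CPM, with A306_00012133 inside at 2.38 CPM. A306_00012945 had the pattern and lay above the upper CPM limit at 2656 CPM, with A306_00011935 the nearest inside. It stood at 1104 to 1860 CPM in low and 2106 to 4190 CPM in high birds of batch 2, and at 1912 to 2219 CPM in low and 3825 to 4555 CPM in high birds of batch 1. All of these outside genes lay in identifier stretches that also held members. A further 136 genes met the CPM and ratio limits while at least 1 low bird overlapped the high birds of its batch, and 73 of these lay in such stretches.

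The choice did not use where a gene stands in the table, and the members stood together there. Of the rows of the table that the authors deposited, 89.2% are followed by the next identifier number. Identifiers of this kind are usually numbered along the scaffolds of an assembly, but no coordinates were used here to check this. Of the 170 genes, 74 (43.5%) had another member in a directly adjoining row, against 233 of the 15222 other genes (1.53%). Within 5 rows, 146 of the 170 (85.9%) had one, against 689 of the other genes (4.53%). The longest runs of members with consecutive identifiers held 4 genes, the first of them A306_00010724 to A306_00010727, whose mean log2 ratios ran from -0.98 to -0.56. Genes that share a run are not independent of each other in position.

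**Figure D4:**
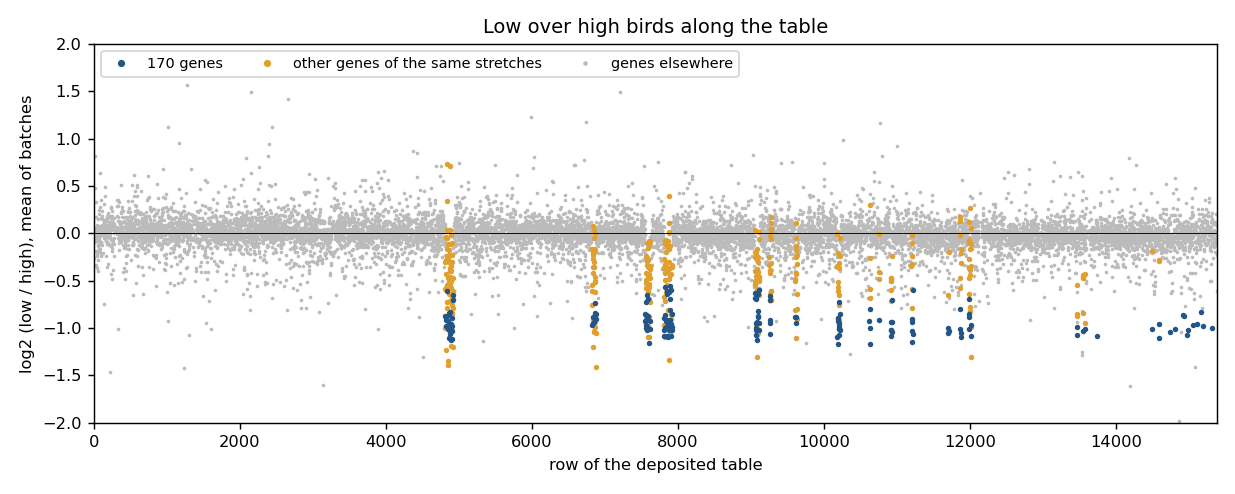
Log2 ratio of low over high birds (mean of the batches) for expressed genes, by row of the deposited table; 1 gene lies outside the plot. The 170 genes (blue) and the other genes of their identifier stretches (orange) stand in narrow columns, and the genes elsewhere (grey) have a median of -0.01.

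The table was then divided into 1372 stretches, each a chain of identifiers at most 5 numbers and 5 rows apart, of which 833 held a single gene. The 170 members fell in 35 stretches, which held 490 of the 11187 expressed genes (4.38%). The remaining 320 genes of these stretches were shifted the same way, though less. Their median log2 ratio was -0.42 (quartiles -0.64 and -0.21), 292 of them (91.2%) were below 0 and 123 (38.4%) were below -0.5. The 10697 genes elsewhere had a median of -0.01 (quartiles -0.08 and 0.07), with 52.4% below 0 and 208 (1.94%) below -0.5. By separation, 40 of the 320 (12.5%) had every low bird below every high bird in batch 2 and 109 (34.1%) in batch 1, against 14 (0.131%) and 285 (2.66%) of the genes elsewhere. Of the 320, 28 genes were at or above 0, and 77 were at or above -0.2.

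Of 269 stretches with at least 5 expressed genes, 18 held members. Over their non-member genes alone, the medians of these 18 ran from -0.85 to -0.17, which overlaps the -0.21 to 0.12 of the 251 stretches without members. With the members, whose ratios the choice fixed, the medians of the 18 ran from -1.0 to -0.32. The nearest 10 genes on either side of these 18 stretches, taken only from stretches without members, had medians between -0.10 and 0.09. Genes of other stretches with members were passed over, which favoured medians near 0, so these values do not show where a shift ends. The adjoining stretches A306_00009880 to A306_00009939 and A306_00010699 to A306_00010750 were given the same flanking medians. The remaining 17 members lay in 17 stretches with fewer than 5 such genes.

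The largest holding was a stretch of 109 genes, A306_00007893 to A306_00008003, with 23 members among 83 expressed genes. Its median log2 ratio was -0.59 over these 83 genes, -0.96 over the members and -0.46 over the other 60 genes, 55 of which were below 0. The difference between members and others is built in by the choice. The 60 rows before this stretch had a median of 0.05 over 42 expressed genes and the 60 rows after it 0.03 over 45. Members took different shares of their stretches: 18 of 52 genes in A306_00009546 to A306_00009614, 16 of 36 in A306_00010699 to A306_00010750, 12 of 28 in A306_00011373 to A306_00011409 and 3 of 19 in A306_00011703 to A306_00011726. The median over members ran from -1.102 to -0.83 over the 35 stretches, and each of these ends came from a stretch with 1 member. The ratio limits of the choice bound how far apart these medians could lie. Their range therefore does not show that the stretches were alike.

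**Figure D5:**
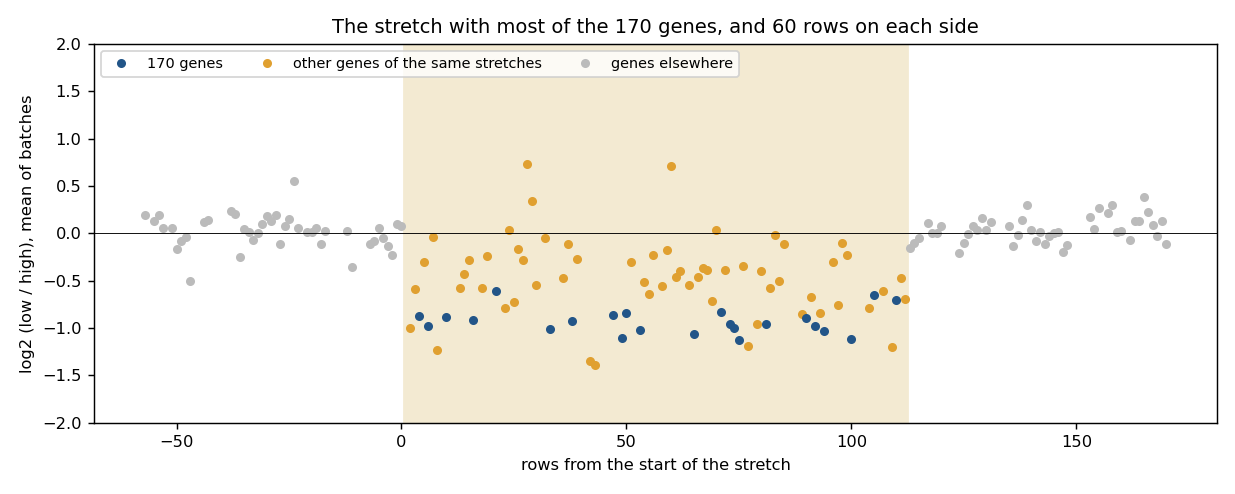
Log2 ratio of low over high birds (mean of the batches) along the stretch with the most members (shaded, 109 genes) and 60 rows on each side, for expressed genes. The median is -0.59 within the stretch, 0.05 before it and 0.03 after it.

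The series was made to compare recessive red with wild-type collars, and the choice of the 170 genes did not use these labels. It still limited this contrast, as each level of each batch held both phenotypes. A gene whose phenotypes differed so far that a low bird of either reached a high bird of its batch could not be a member. The 2 levels required within each phenotype also widen the errors of a fit without the split. Few calls among the members were therefore favoured by the choice. None of the 170 was called in the comparison of all birds with a term for batch (edgeR quasi-likelihood test, Benjamini-Hochberg adjustment over 12839 genes), where 4.22% of all tested genes were called, 1.64% as higher and 2.58% as lower in recessive red. An unadjusted p under 0.05 was seen in 1 member and in 2377 (18.5%) of all tested genes. DESeq2 called 0 of the 170 and 872 of 14282 genes in all. The log2 fold changes of the members ran from -0.33 to 0.47, with a median of 0.09 beside 0.01 over all genes. Of the 170, 130 (76.5%) were above 0, beside 53.1% of all genes, and 105 were above 0 with the split into low and high birds as a term. The standard errors of the members had a median of 0.21, beside 0.12 over all genes. The low birds were 3 of 9 recessive red and 4 of 10 wild-type birds.

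The gene nearest to a call was A306_00000474, which stood, in batch 2, at 14.1 and 14.8 CPM in low and 28.5, 23.98, 25.7 and 22.7 CPM in high recessive red birds, and at 9.83 and 13.5 CPM in low and 17.3, 20.01, 16.6 and 16.9 CPM in high wild-type birds. In edgeR the difference was 0.39 ± 0.18 log2 units over all birds (SE, adjusted p = 0.252) and 0.50 ± 0.20 in batch 2 (SE, adjusted p = 0.179). In batch 1 the edgeR difference was 0.23 ± 0.32 (SE, adjusted p = 0.9996). At each level of batch 2 the recessive red birds lay above the wild-type birds. The gene was picked for the smallest p of the 170 over all birds, which favours such an order. Over all birds the edgeR difference of A306_00011935 was -0.05 ± 0.16 log2 units (SE, adjusted p = 0.903) and that of A306_00009564 0.29 ± 0.24 (SE, adjusted p = 0.552).

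In batch 2, 0 of 170 were called where 3.86% of 12459 genes were (2.4% higher and 1.46% lower in recessive red), with a member median of 0.05 beside 0.02 over all genes and 1 member with an unadjusted p under 0.05, beside 2477 of all genes (19.9%). In batch 1, 0 of 170 were called where 0.465% of 12693 genes were (0.00788% higher and 0.457% lower), with a median of 0.15 beside 0.01, and 0 members with an unadjusted p under 0.05, beside 898 of all genes (7.07%; edgeR). DESeq2 called 0 members in either batch, and 1014 genes in all in batch 2 and 234 in batch 1. In batch 1 the low birds were 1 of 3 recessive red and 2 of 4 wild-type birds, while in batch 2 they were 2 of 6 of each phenotype. Of the 872 genes with an adjusted p under 0.05 in the authors' deposited table, among 14283 with an adjusted p, 0 were members, and the members' log2 fold changes in that authors' deposited table lay between -0.32 and 0.47. The DESeq2 fit over all birds used the counts of that same table and also called 872 genes, so the authors' values are no separate result.

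When the split into low and high birds was added as a term, the median standard error of the members fell to 0.09, below the 0.12 of all genes, over all birds. The median difference of the members was then 0.03 log2 units over all birds, 0.05 in batch 2 and 0.03 in batch 1, beside 0.01, 0.02 and 0.01 over all genes. In this fit 3 of 170 members were called over all birds (1.76%, beside 4.25% of 12929 genes). They are named after their values were seen: A306_00009858 was lower in recessive red (-0.35 ± 0.09, SE, adjusted p = 0.0211), and A306_00009886 (0.24 ± 0.06, SE, adjusted p = 0.0388) and A306_00010714 (0.26 ± 0.07, SE, adjusted p = 0.0436) were higher (edgeR). In batch 2 this fit called A306_00000474 (0.48 ± 0.11, SE, adjusted p = 0.0366) and A306_00014516 (0.40 ± 0.10, SE, adjusted p = 0.0481), both higher, which is 2 of 170 members (1.18%) beside 3.77% of 12814 genes. The genes were chosen because this split parts them, so the p-values of this fit are too small for them.

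Between the alleles, 0 of 170 genes were called in e2 against e1 homozygotes of batch 2, where 0.0226% of 13269 genes were called, 0.00754% as higher and 0.0151% as lower in e2 (edgeR). An unadjusted p under 0.05 was reached by 0 members and 800 of all genes (6.03%), and DESeq2 called 0 members and 27 of 15103 genes. The member log2 differences ran from -0.60 to 0.50 with a median of 0.00, beside 0.00 over all genes. The 95% interval (normal approximation) of the difference had a median half-width of 0.76 log2 units, and for 127 of the 170 genes it lay within 1 log2 unit of 0. Each allele held 1 low and 2 high birds, so the choice limited this contrast too and widened its errors. The interaction of batch and phenotype was called for 0 of 170 members, where 0% of 13027 genes were called (edgeR; 0 members and 908 of all genes with an unadjusted p under 0.05; DESeq2 called 0 members and 5 of 12821 genes).

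The batches did differ in some of the 170 genes. In batch 2 against batch 1, with phenotype as a term, 20 were called (11.8%), 7 higher and 13 lower in batch 2, where 40.6% of 12839 genes were called, 20.2% as higher and 20.4% as lower (edgeR). The standard errors of the members had a median of 0.22 in this fit, beside 0.13 over all genes. The gene with the smallest adjusted p was A306_00009901, which stood at 85.5, 46.4, 52.7 and 61.6 CPM in low and 108 to 157 CPM in high birds of batch 2, and at 105, 89.8 and 112 CPM in low and 199.6 to 219.7 CPM in high birds of batch 1. It was lower in batch 2 by edgeR (log2 -0.81 ± 0.23, SE, adjusted p = 0.00814). Of the higher genes, A306_00009831 led, with 44.1 to 57.9 CPM in low and 72.7 to 96.6 CPM in high birds of batch 2 and 31.2 to 35.5 CPM in low and 42.3 to 61.8 CPM in high birds of batch 1, and was higher in batch 2 by edgeR (log2 0.57 ± 0.17, SE, adjusted p = 0.00972). In both genes the low and high birds did not overlap within a batch, as the choice requires.

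The count in this comparison depended on the split. With low and high as a term, 81 of 170 genes (47.6%) were called, 15 higher and 66 lower in batch 2, beside 41.3% of 12929 genes, while without the term the share was 11.8% beside 40.6%. As the choice of the members narrows their spread in the fit with the term, its 47.6% cannot be set against the share of all genes. Without the term, the 2 levels that the choice requires widen the spread of the members. The 11.8% can therefore not be set against the share of all genes either. DESeq2 without the term called 21 members and 5562 of 14282 genes. The count of 20 was 12 without recessive red bird 4, 13 without wild-type bird 1 and 11 without wild-type bird 2, all high birds of batch 1. The batches differ at least in year and in birds together. These cannot be told apart from each other or from any other difference between the batches, such as library preparation.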

How the data were processed

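Messenger RNA of the feather collar was sequenced from 19 pigeons, and the bird is the replicate. In their table the authors deposited, per gene identifier, raw read counts of each bird and, per the file headers, columns in the format of DESeq2 results: a mean normalised signal, a log2 fold change with its error, a test score, a p-value and an adjusted p-value. Which model they fitted is not stated, and aligner, counter and strand setting were not found in the labels. DESeq2 is named in the submitters' processing notes. Genes that share reads with a near-identical copy could not be recognised. All birds' totals are given as a range above, from 13559606 to 23168538 counts.

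Unscaled CPM and the membership rule were computed in Python (version 3.11.15) from those counts. The members, the split of the birds and the lists were chosen with earlier results of these data known. Tests were run with edgeR (version 4.0.16, in R 4.3.3): filterByExpr, TMM scaling and the quasi-likelihood test, on all genes that passed the filter, with Benjamini-Hochberg adjustment over all of them and a call at an adjusted p under 0.05. All 170 members passed the filter in each comparison, which their CPM minimum favours. A standard error is the size of the fold change divided by the square root of F. Alternatives were DESeq2 (version 1.42.0) as scaling or test, other filters on low values, other limits of the set, no batch term, the split as a term, the bird number as a block and leaving out each bird in turn. The procedures were tested on simulated counts.

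A list of chicken Z genes, one of W genes and one of cell markers were set, and 0 of their members could be matched. The rule for named genes took the 2 members highest in CPM, the 2 with the most and the 2 with the least negative ratio, the nearest gene outside each limit, the ends of the longest run, the 2 most like the median profile, and the leading member called in each direction of a comparison. The lowest chi-square per degree of freedom between birds of a group was 18.8, so no pair of libraries agreed within sampling noise. Bird numbers 1, 3 and 4 occur in both phenotypes of batch 1.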

Additional observations from a re-analysis of the deposited data

Results flagged for a closer look

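Single birds were checked against the others of their group in 95 comparisons, over 16 genes of the set and 3 measures of the libraries, in the wild-type groups and in the low and high birds of each batch with 4 to 10 birds. Chance flags about 1 in 20 where a group holds a single level. The wild-type groups held low and high birds, and the gap between these makes a flag unlikely for the genes of the set. The rate of 1 in 20 can therefore not be set against the flags found. In 5 comparisons, all within the high birds of a batch, a bird stood apart. Recessive red bird 5, an e2 homozygote, accounted for 3: among the 8 high birds of batch 2 it had the highest share of counts in the 170 genes (1.41%, next 1.34%), the lowest CPM of A306_00009899 (129 CPM, next 162 CPM) and the highest of A306_00009901 (157 CPM, next 130.3 CPM). In the same group wild-type bird 21 was highest in A306_00009831 (96.6 CPM, next 83.8 CPM). Among the 4 high birds of batch 1, wild-type bird 1 was lowest in A306_00010724 (13.5 CPM, next 17.6 CPM).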

How the results depend on the processing

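Of 174 recomputed values 167 kept within 1.5 times the count, or within the spread of the low birds for the ratio. The ratio kept its sign, which the choice had set below 0, and counts have no sign. Many of the kept values were counts of 0 members called, which the choice favoured. This tally is therefore no measure of how firm the results are. The set held 158 genes with TMM-scaled CPM (155 of the 170 among them), and 166 to 184 with a bird left out, at least 165 of the 170 among them. Leaving out a bird removes conditions of separation, so a member could then be lost only at the CPM or ratio limits. Its median log2 ratio stayed between -0.97 and -0.91 under all alternatives run, and between -0.97 and -0.94 with a bird left out. Members with a neighbouring member numbered 146 within 5 rows and, by an alternative chosen after seeing the data, 93 among expressed genes alone, in place of 74. With the low or high split as a term, members called numbered 3 for recessive red over all birds, 2 in batch 2 and 81 between batches, and with a bird left out 11 to 23 between batches. The other comparisons called 0 members under every alternative run. The replicate block, the shared bird number of batch 1, gave 0 members called over all birds and 0 in batch 1. Deviations of same-numbered birds correlated there with r = -0.21, -0.09 and -0.17, beside -0.12 to 0.22 for birds of unlike number. So few birds cannot decide whether the numbers pair them. All members had enough counts to pass the filter of each test.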
